A study of Mus musculus with 8 samples.

Results

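The 33 Hox cluster genes described here were all the genes on the array whose platform symbol reads Hoxa, Hoxb, Hoxc or Hoxd followed by a number, out of 19505 genes with a symbol. Each had 1 probe set. The mouse RefSeq table lists 39 such genes, and the other 6 were not analysed here. RNA came from pieces of ileum of about 4 cm from KKAy males. KKAy mice have the yellow form of agouti, with obesity and diabetes. Mice of both groups, given as 14 weeks old, ate food with 45% of its energy as fat, and after 4 weeks on it they had daily gavage for 8 weeks. In the voglibose group (4 mice) the gavage held voglibose at 1 mg/kg, an inhibitor of the alpha-glucosidases of the brush border, and in the water group (4 mice) it held water alone. The yellow agouti allele and the fatty food were thus shared by all mice, and there was no lean or untreated group.

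Hox genes encode homeodomain transcription factors that lie in 4 clusters, A to D, and are numbered by paralogue group from the anterior end (1) to the posterior end (13). In the embryo they are switched on along the body axis in the order of their position in the cluster, and adult tissues keep part of that pattern. In the gut most Hox expression is known from the mesenchyme, that is muscle and connective tissue, with the most posterior genes marking the hindgut, and Hox proteins bind DNA together with cofactors of the Pbx, Meis and Pknox families.

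Promoter sequences of 17 of the 33 genes were in the RefSeq table (GRCm38.p6), 51.5% of them, so a comparison of base composition between sets of Hox genes was void. Of the 9 genes with signal above background (below), only Hoxa2 and Hoxa3 were in it. The 250 bases before the listed start of these genes are shown beside those of Hoxa13, a posterior gene of the same cluster whose signal did not leave the background. On the same strand, the Hoxa3 window lies beyond those of Hoxa5 (chr6:52204588-52204837) and Hoxa6 (chr6:52208673-52208922). As Hoxa3 precedes both in the order of the cluster, its listed start is an upstream one and need not be the nearest to the gene. Capitals mark matches to the Meis site TGACAG or to the Pbx-Hox site TGATTGAT, searched on both strands.
Hoxa2 (chr6:52164832-52165081, minus strand): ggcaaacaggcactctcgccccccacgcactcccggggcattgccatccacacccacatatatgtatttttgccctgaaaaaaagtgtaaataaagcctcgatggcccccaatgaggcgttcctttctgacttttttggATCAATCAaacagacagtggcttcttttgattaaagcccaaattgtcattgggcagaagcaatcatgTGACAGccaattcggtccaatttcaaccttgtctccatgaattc
Hoxa3 (chr6:52213068-52213317, minus strand): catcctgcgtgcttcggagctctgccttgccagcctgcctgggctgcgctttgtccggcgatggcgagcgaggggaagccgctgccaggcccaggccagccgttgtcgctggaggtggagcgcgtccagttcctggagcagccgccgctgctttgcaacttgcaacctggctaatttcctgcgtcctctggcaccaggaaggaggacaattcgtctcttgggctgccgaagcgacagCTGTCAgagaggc
Hoxa13 (chr6:52260881-52261130, minus strand): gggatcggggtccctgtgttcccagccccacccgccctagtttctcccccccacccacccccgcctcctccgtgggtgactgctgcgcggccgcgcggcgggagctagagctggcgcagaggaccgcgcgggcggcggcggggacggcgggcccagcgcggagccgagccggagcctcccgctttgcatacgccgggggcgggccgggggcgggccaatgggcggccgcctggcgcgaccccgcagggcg
The Hoxa2 window held 1 Pbx-Hox site, on the minus strand of the gene from 111 to 104 bases before the start, and 1 Meis site from 44 to 39 bases before it. The Hoxa3 window held 1 Meis site, from 13 to 8 bases before the start on the minus strand of the gene, and that of Hoxa13 held neither. A window of Hoxd11, a posterior gene at background signal, also held 1 Pbx-Hox site, from 73 to 66 bases before its start. The sites thus do not separate genes above the background from those at it. Of all 32851 promoter windows of this length, 15.9% held the Meis site and 0.67% the Pbx-Hox site. CpG dinucleotides numbered 6 in Hoxa2, 18 in Hoxa3 and 35 in Hoxa13, where the median window had 6 and 2.97% of windows had at least as many as Hoxa13. Hoxa13 had the most of the listed Hox windows. Other windows of Hox genes at background had from 2 (a window of Hoxd11) to 31 (Hoxd13). A match of letters is a description and no evidence of binding.

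The arrays gave log2 signals from 2.09 to 19.55 for 22206 probe sets, with array medians from 5.89 to 5.94. Signals do not state whether a gene is expressed, so the 1414 probe sets of olfactory and vomeronasal receptors, a class not known from the intestine, were taken as a guide to background. The 95th percentile of their means, 5.13, is called the band here, and 58.9% of all probe sets had a mean over the 8 mice above it. Probe sets differ in how well they capture their target, so signals of 2 genes cannot be read as amounts of 2 transcripts. The number of arrays limits the precision. The piece of tissue held the whole wall: the smooth muscle myosin gene Myh11 had group means of 12.39 in voglibose and 12.23 in water mice, and the epithelial gene Epcam of 17.21 and 17.12. Single mice stood apart. Voglibose mouse 2 carried pancreatic signal, with Amy2a5 (pancreatic amylase) at 14.09 and Cpa1 (a carboxypeptidase) at 12.01, where the other 7 mice had at most 5.32 and 5.37. Voglibose mouse 2 and water mouse 4 had the lowest signals of Fabp6, the ileal bile acid binding protein, at 3.54 and 4.01, against 8.14 to 17.50 in the other mice. Water mouse 2 had the highest, at 17.50.

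Of the 33 Hox genes, 9 had a mean above the band (27.3%, against 58.9% of all probe sets): Hoxa2, Hoxa3 and Hoxa4, Hoxb2, Hoxb3 and Hoxb7, and Hoxc6, Hoxc8 and Hoxc9. Clusters A, B and C thus gave 3 each, of 8, 9 and 9 genes analysed, and cluster D gave 0 of 7. By paralogue group, 5 of the 11 genes of groups 1 to 5 and 4 of the 10 genes of groups 6 to 9 lay above the band. None of the 12 genes of groups 10 to 13 did, and their means ran from 2.79 to 4.69. In 7 of the 9 genes all 8 mice lay above the band, while Hoxa4 and Hoxb3 (means 5.23 and 5.22) lay just above it with 5 mice each. Just below it stood Hoxa5, known in mouse for its role in lung and stomach development, with a mean of 4.77 and 2 mice above the band, and Hoxd12, a limb gene, with 4.69 and 0 mice above. Along the Hoxc cluster the genes above the band stood together: Hoxc4 and Hoxc5 had means of 4.18 and 3.56, their neighbours Hoxc6, Hoxc8 and Hoxc9 had 6.95, 7.74 and 6.18, and Hoxc10 had 3.14. These are signals of different probe sets, each read against the band and not against each other.

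**Figure D1:**
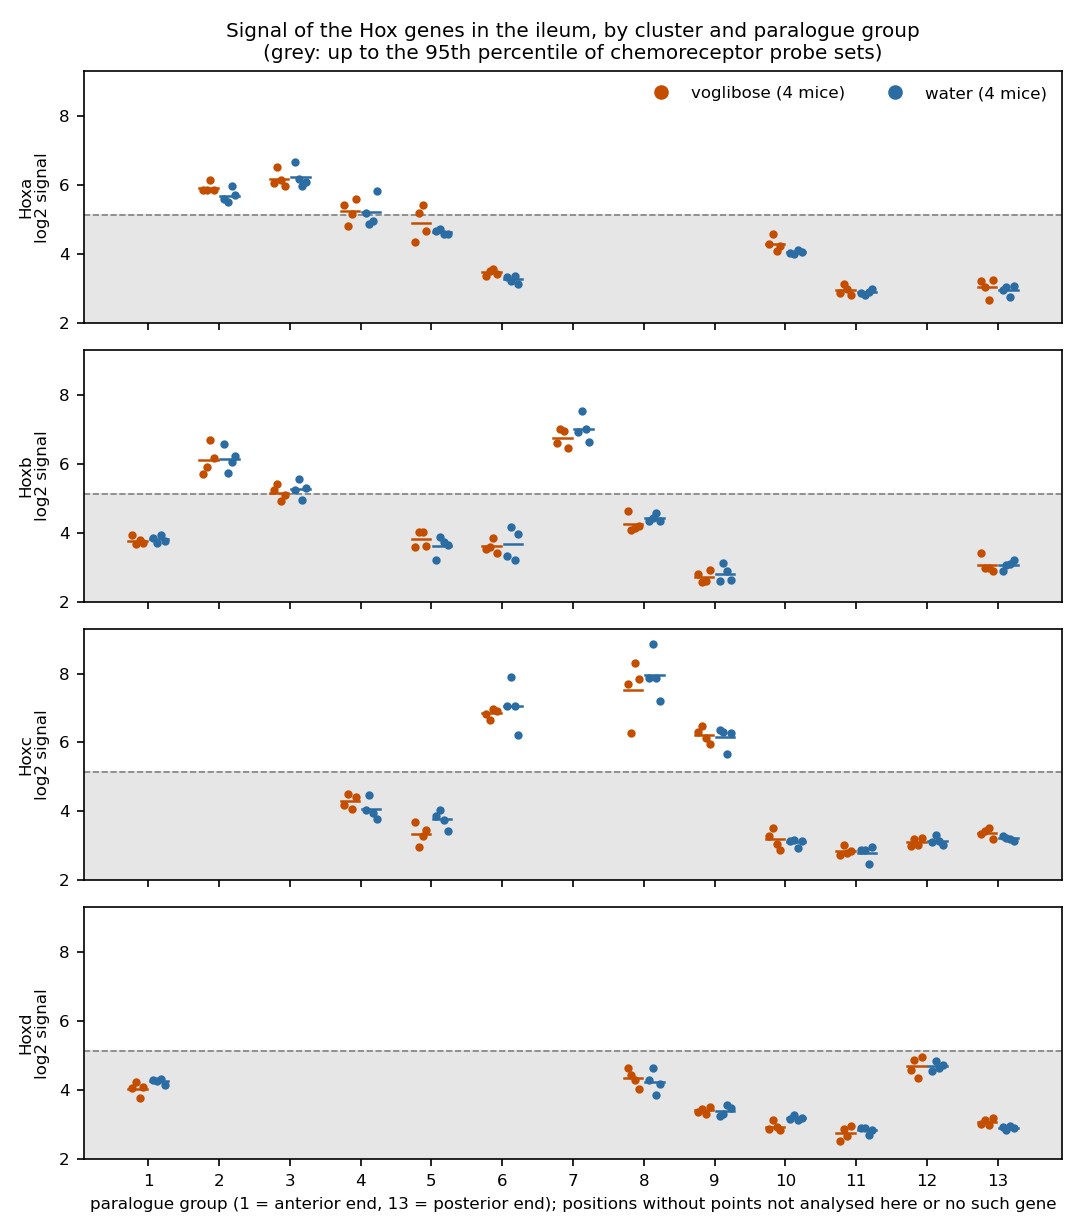
Log2 signal (y axis) of the 33 Hox genes in each mouse, by paralogue group (x axis) and cluster (panels); points are mice, orange for voglibose and blue for water, lines are group means, and grey marks signals up to the band at 5.13. The mean over the 8 mice lies above the grey area for 3 genes each of the Hoxa, Hoxb and Hoxc clusters and for 0 genes of the Hoxd cluster, and 2 single mice lie above it for Hoxa5.

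Hoxc8, which patterns the thoracic region of the axis, varied most between mice. It had 7.69, 6.27, 8.30 and 7.83 in voglibose mice 1 to 4, against 7.86, 8.87, 7.88 and 7.2 in water mice 1 to 4. Voglibose mouse 2 was lowest and water mouse 2 highest, a 6.06-fold range, and the groups overlapped. The group means were 7.52 ± 0.87 in voglibose and 7.95 ± 0.69 in water mice (SD, n = 4), a difference of -0.43 ± 0.43 (log2, voglibose minus water, SE from limma; 95% interval -1.37 to 0.51; adjusted p = 0.848). Omitting single mice moved this difference from -0.69 (voglibose mouse 3 omitted) to -0.01 (voglibose mouse 2 omitted, the mouse with pancreatic signal). Dropping water mouse 2 brought it to -0.12, while it came to -0.68 when water mouse 4 was dropped. Within the groups Hoxc8 had an SD of 0.79, higher than 98.3% of all probe sets.

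Hoxc6, the gene next to Hoxc8 that was analysed and a marker of the cervical to thoracic transition, followed with an SD of 0.49. Its signals were 6.84, 6.66, 6.96 and 6.91 in voglibose mice 1 to 4, against 7.06, 7.89, 7.06 and 6.22 in water mice 1 to 4. The voglibose mice lay close together, between the extremes set by water mouse 2 and water mouse 4. The difference was -0.22 ± 0.28 (95% interval -0.84 to 0.41), and leaving out water mouse 2 gave 0.06, while leaving out water mouse 4 gave -0.49. Hoxc9, known for setting the identity of thoracic motor neurons, had 6.30, 6.47, 6.13 and 5.97 in voglibose mice 1 to 4, against 6.35, 6.30, 5.67 and 6.27 in water mice 1 to 4. Here water mouse 3 was lowest, and water mice 2 and 4 had nearly the same signal, unlike in Hoxc6 and Hoxc8. The difference of Hoxc9 was 0.07 ± 0.19 (95% interval -0.34 to 0.48).

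In the Hoxb cluster, Hoxb7, a gene of the trunk, had 6.60, 7.02, 6.96 and 6.45 in voglibose mice 1 to 4, against 6.92, 7.53, 7.02 and 6.62 in water mice 1 to 4. Water mouse 2 was highest and voglibose mouse 4 lowest, and the difference was -0.27 ± 0.21 (95% interval -0.73 to 0.20). Leaving out water mouse 2 gave -0.10, and leaving out water mouse 4 gave -0.40. Hoxb2, a hindbrain gene activated by Hoxb1, had 5.71, 5.92, 6.68 and 6.16 in voglibose mice 1 to 4, against 6.57, 5.74, 6.05 and 6.23 in water mice 1 to 4. Its high and low mice were found in both groups, and the difference was -0.03 ± 0.23 (95% interval -0.54 to 0.48). Hoxb3, which acts in the hindbrain and pharynx, had 5.24, 5.41, 4.91 and 5.10 in voglibose mice 1 to 4, against 5.23, 5.57, 4.96 and 5.31 in water mice 1 to 4. Water mouse 2 was again highest, and the difference was -0.10 ± 0.17 (95% interval -0.48 to 0.27). Leaving out water mouse 2 gave -0.0017, and leaving out water mouse 3 gave -0.21.

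Among the Hoxa genes above the band, Hoxa3, needed for thymus and parathyroid in mouse, had 6.05, 6.53, 6.16 and 5.98 in voglibose mice 1 to 4, against 6.67, 6.18, 5.96 and 6.08 in water mice 1 to 4. Water mouse 1 and voglibose mouse 2 were high and the other mice close together (difference -0.04 ± 0.19, 95% interval -0.46 to 0.37). Hoxa4, which acts in the neck region of the axis, had 5.41, 4.82, 5.15 and 5.59 in voglibose mice 1 to 4, against 5.18, 4.86, 4.97 and 5.84 in water mice 1 to 4. Water mouse 4, which was the lowest for Hoxc6 and the next to lowest for Hoxc8, was the highest mouse for Hoxa4, and the difference was 0.03 ± 0.24 (95% interval -0.49 to 0.55). Hoxa2, which patterns hindbrain and second pharyngeal arch and whose promoter window is printed above, had 5.85, 5.87, 6.14 and 5.85 in voglibose mice 1 to 4, against 5.61, 5.51, 5.97 and 5.70 in water mice 1 to 4. It was the steadiest of the 9 genes, with an SD of 0.17. Its difference of 0.23 ± 0.15 (95% interval -0.10 to 0.56) had the smallest unadjusted p among them, 0.154 from limma.

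**Figure D2:**
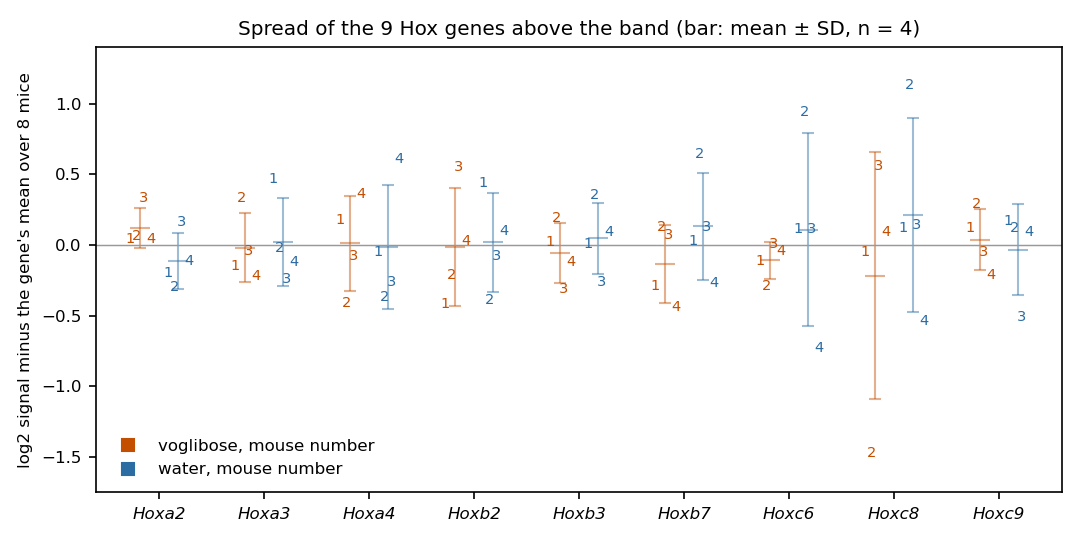
Log2 signal minus each gene's mean over the 8 mice (y axis) for the 9 Hox genes above the band (x axis); digits are mouse numbers, orange for voglibose and blue for water, and bars give the group mean ± SD (n = 4). Hoxc8 has the widest spread (SD within groups 0.79), with voglibose mouse 2 at the bottom and water mouse 2 at the top, and Hoxa2 the narrowest (0.17).

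The median SD within groups, as a description, was 0.331 for the 9 genes, 0.272 for all 13088 probe sets above the band and 0.255 for all probe sets. Not each of the 9 genes had a large spread: the SD of Hoxa2 (0.17) was higher than that of 17.7% of all probe sets, and that of Hoxb3 (0.23) than 40.8%. Without water mouse 4 and voglibose mouse 2, left out after seeing the data, the median of the 9 was 0.29. The median of all probe sets was not counted there. The 24 Hox genes not above the band had SDs from 0.07 to 0.36.

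The 9 genes were set against 4 marker lists, each summarised per mouse as the mean of its centred genes: smooth muscle (12 genes), fibroblasts (11), epithelium (12) and the distal small intestine (10, among them Fabp6, the bile acid transporter Slc10a2 and the hormone gene Pyy). Genes were not scaled, so those with wide ranges weighed most, such as Fabp6 (3.54 to 17.50) and Fgf15 (4.92 to 13.62) on the distal list. Slc9a3 on that list ran opposite to Fabp6. It was highest in water mouse 4 (15.11) and voglibose mouse 2 (14.79) and lowest in water mouse 2 (12.47). How far the relations below rest on single list genes was not tested. Hoxc8 ran with the distal list, with Pearson's r = 0.91 (exact permutation p = 0.00164, adjusted 0.0589 over the 36 relations) and Spearman's rho = 0.95 (exact permutation p = 0.00114, adjusted 0.0411; 2-sided, n = 8). The adjusted p thus passed 0.05 for the ranks and not for the values. The distal list mean was -0.47, -1.72, 0.50 and 0.44 in voglibose mice 1 to 4, against -0.29, 2.19, 0.92 and -1.56 in water mice 1 to 4, so the lowest 2 mice for Hoxc8 were also the lowest 2 for the distal list and water mouse 2 was highest in both. After leaving out the mice farthest from the median, voglibose mouse 2 and water mouse 2, r was 0.82, and with each group centred on its own mean it was 0.90. Hoxc6 behaved alike, with r = 0.89 and rho = 0.87 for the distal list (exact permutation p = 0.00407 and 0.00754, adjusted 0.0732 and 0.136), and r = 0.85 without the same 2 mice.

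The tissue lists were set against the same genes, and no relation with them passed after adjustment. The smooth muscle list, with 11 of 12 genes above the band, ran from -0.24 to 0.73 in voglibose and from -1.22 to 1.31 in water mice, and it was itself related to the distal list (r = 0.79, n = 8, no test). Hoxc6 had r = 0.89 and rho = 0.61 with smooth muscle (exact permutation p = 0.0149 and 0.117, adjusted 0.0959 and 0.466), and without water mice 2 and 4, the 2 farthest, r was 0.19, so that relation rested on these mice. Hoxc8 had r = 0.71 and rho = 0.69 with smooth muscle (exact permutation p = 0.0409 and 0.0694, adjusted 0.184 and 0.357), and r = 0.52 without the same mice. The epithelium list (12 of 12 genes above the band), which ran from -0.22 to 0.18 in voglibose and from -0.28 to 0.22 in water mice, had r = 0.80 and rho = 0.67 with Hoxc8 (exact permutation p = 0.0177 and 0.0831, adjusted 0.0959 and 0.374). With Hoxc6 it had r = 0.76 and rho = 0.56 (exact permutation p = 0.0152 and 0.154, adjusted 0.0959 and 0.554). Without voglibose mouse 2 and water mouse 4, the farthest from the median, these r were 0.54 and 0.47. The epithelium list was related to the distal list as well (r = 0.82, n = 8, no test). When voglibose mouse 2 alone was left out, Hoxc8 had r = 0.98 with smooth muscle (adjusted p = 0.0738, exact permutation), the highest over single mice left out. Without water mouse 2 alone that r was lowest, 0.51 (adjusted p = 0.475, exact permutation). Hoxb7 was related to the fibroblast list, with r = 0.83 and rho = 0.84 (exact permutation p = 0.00754 and 0.0131, adjusted 0.0905 and 0.157; r = 0.71 without voglibose mouse 4 and water mouse 2). With Pearson's r, 8 of the 36 relations had an unadjusted p under 0.05 and 0 passed after adjustment. With Spearman's rho these counts were 5 and 1. How many other probe sets run with these lists was not counted, so the relations cannot be called particular to Hox genes. In RNA of a whole piece of tissue, fewer cells of a type and less RNA per cell cannot be told apart, and the distal position of the piece and its makeup of muscle and epithelium cannot be told apart in 8 mice whose lists move together. The part of tissue makeup in the spread of these genes was not tested.

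**Figure D3:**
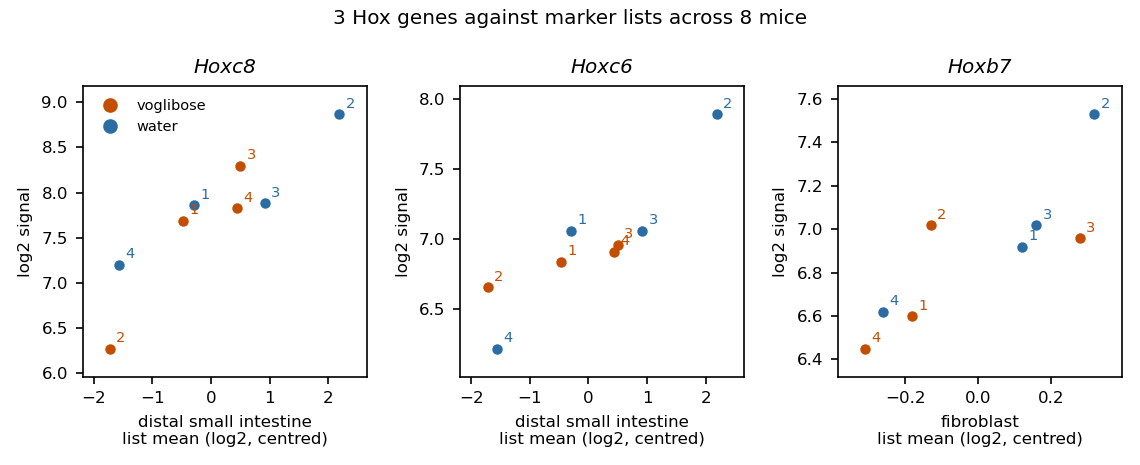
Log2 signal of Hoxc8 and Hoxc6 against the distal small intestine list mean and of Hoxb7 against the fibroblast list mean (x axes, mean of centred log2 signals); points are mice with their number, orange for voglibose and blue for water. Hoxc8 and Hoxc6 are low in voglibose mouse 2 and water mouse 4 and highest in water mouse 2 (r = 0.91 and 0.89, n = 8).

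The comparison of voglibose with water asks whether treatment shifted these genes. No Hox gene passed the test over all probe sets (limma, Benjamini-Hochberg; adjusted p from 0.659 to 0.997), and no probe set of the array did (0.0% called). At an unadjusted p under 0.05 stood 1 of the 33 genes (3.0%), lower in voglibose, against 7.52% of all probe sets (3.08% higher and 4.44% lower). It was not among the 9 above the band, where 9.39% of all probe sets above the band reached that level. The ordinary linear model, run on the same values, called 0 genes too. The p-values set each difference between the groups against the spread between mice within groups, which limma draws toward that of all probe sets. In voglibose mice 17 genes were higher and 16 lower, with a median difference of 0.008, where the median of all probe sets was -0.005. Differences ran from -0.43 to 0.27 over the 33 genes and from -0.43 to 0.23 over the 9 above the band, of which 3 were higher and 6 lower. For each of the 9 genes the 95% interval, printed above, gives the differences that these data, with 4 mice a group, do not exclude. That interval was widest for Hoxc8 (-1.37 to 0.51) and narrow for Hoxa2 (-0.10 to 0.56).

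**Figure D4:**
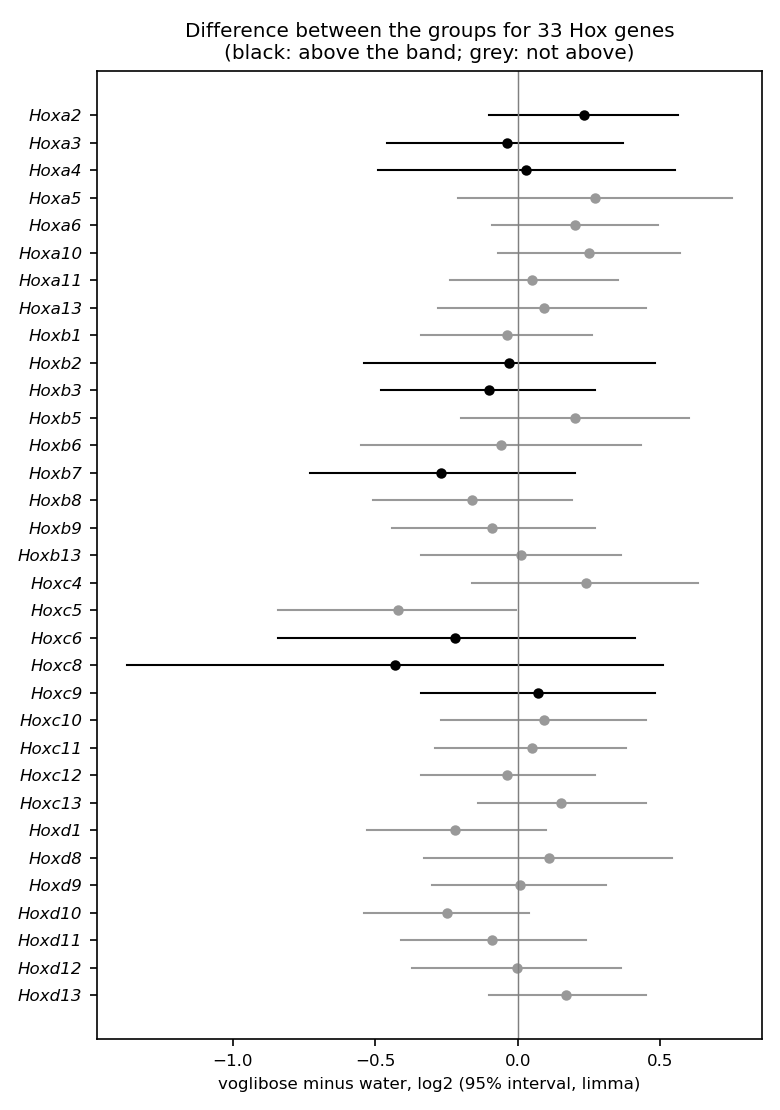
Difference in log2 signal, voglibose minus water (x axis), for the 33 Hox genes (y axis); points are estimates and lines 95% intervals from limma, black for the 9 genes above the band and grey for the other 24. The interval of Hoxc5 alone excludes 0, before adjustment, and Hoxc8 has the widest interval.

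The gene below an unadjusted p of 0.05 was Hoxc5, which belongs to the cervical part of the cluster and did not lie above the band. It had 3.69, 2.97, 3.29 and 3.45 in voglibose mice 1 to 4, against 3.88, 4.03, 3.75 and 3.43 in water mice 1 to 4. Water mouse 4 fell among the voglibose mice, so the groups overlapped. The difference was -0.42 ± 0.19 (95% interval -0.84 to -0.0069; unadjusted p = 0.0469, adjusted p = 0.659, limma), at signals where 36.8% of the receptor probe sets were lower.

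The next 7 genes by p held 1 gene above the band, Hoxa2, and 6 at background signal. Hoxd10, a gene of the lumbar region and hindlimb, had 2.86, 3.13, 2.93 and 2.85 in voglibose mice 1 to 4, against 3.17, 3.29, 3.12 and 3.19 in water mice 1 to 4 (difference -0.25 ± 0.13). Hoxa10, which patterns the lumbar region and uterus, had 4.30, 4.58, 4.09 and 4.24 in voglibose mice 1 to 4, against 4.02, 4.00, 4.12 and 4.07 in water mice 1 to 4 (difference 0.25 ± 0.14). In both genes the groups overlapped, and neither had any mouse above the band. Hoxd1, known from pain-sensing neurons in mouse, had 4.06, 4.24, 3.77 and 4.08 in voglibose mice 1 to 4, against 4.30, 4.26, 4.32 and 4.14 in water mice 1 to 4 (difference -0.22 ± 0.14). Hoxa6, a thoracic gene, had 3.36, 3.52, 3.56 and 3.42 in voglibose mice 1 to 4, against 3.33, 3.23, 3.37 and 3.14 in water mice 1 to 4 (difference 0.20 ± 0.13). These 2 genes also had overlapping groups. Hoxc4, which in B cells promotes antibody class switching, had 4.19, 4.50, 4.07 and 4.43 in voglibose mice 1 to 4, against 4.05, 4.48, 3.94 and 3.78 in water mice 1 to 4 (difference 0.24 ± 0.18). Its groups overlapped as well.

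Hoxd13, a gene of digits and of the hindgut, was the 1 gene (3.0%) whose groups did not overlap, against 4.35% of all probe sets. It had 3.01, 3.12, 3.0 and 3.18 in voglibose mice 1 to 4, against 2.92, 2.84, 2.95 and 2.91 in water mice 1 to 4. The difference was 0.17 ± 0.13 (95% interval -0.10 to 0.45; adjusted p = 0.790, limma), and 6.01% of the receptor probe sets had a lower mean. Hoxa13 and Hoxb13, the other posterior genes that mark hindgut, had means of 3.0 and 3.06 and differences of 0.09 ± 0.17 and 0.01 ± 0.16. Of 8 measured large intestine markers 4 lay above the band, and Sycn on that list is also a pancreatic gene, at 6.59 in voglibose mouse 2. The 4 were Mep1a, Ang4, Slc26a3 and Muc4, with means over the 8 mice of 16.51, 16.43, 14.86 and 5.31. The defining genes Car1 and Aqp8 had group means of 3.62 and 4.39 in voglibose and 3.78 and 4.36 in water mice, below the band.

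Hoxd12 had the highest mean of the Hoxd cluster, with 4.58, 4.87, 4.34 and 4.97 in voglibose mice 1 to 4, against 4.55, 4.85, 4.65 and 4.72 in water mice 1 to 4 (difference -0.0025 ± 0.17). The remaining Hoxd genes were near background: Hoxd8, Hoxd9 and Hoxd11 had means of 4.30, 3.41 and 2.79 and differences of 0.11 ± 0.20, 0.0075 ± 0.14 and -0.09 ± 0.15. In the Hoxb cluster, Hoxb5 (a regulator of enteric neural crest), Hoxb6 and Hoxb8 had means of 3.71, 3.63 and 4.34 and differences of 0.20 ± 0.18, -0.06 ± 0.22 and -0.16 ± 0.16. Hoxb1, a hindbrain gene, and Hoxb9 had means of 3.79 and 2.77 and differences of -0.04 ± 0.13 and -0.09 ± 0.16. Hoxa5 differed by 0.27 ± 0.22 and Hoxa11, a kidney and forearm gene, by 0.05 ± 0.13. In the posterior Hoxc cluster, Hoxc10, Hoxc11, Hoxc12 and Hoxc13 (the last known from hair and nails) differed by 0.09 ± 0.16, 0.05 ± 0.15, -0.04 ± 0.14 and 0.15 ± 0.13. Of the 33 genes, 17 had a mean below the median of the receptor probe sets, 3.80.

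Among the partners of Hox proteins, 8 of 9 listed genes of the Pbx, Meis and Pknox families were measured and 5 lay above the band. In voglibose mice 4 were higher and 4 lower (median difference 0.00), 1 had an unadjusted p under 0.05, against 7.52% of all probe sets, and 0 passed after adjustment. That gene was Pbx3, with 6.28, 6.50, 6.66 and 6.50 in voglibose mice 1 to 4, against 7.06, 7.19, 6.80 and 6.70 in water mice 1 to 4. All voglibose mice lay below all water mice, and 4.35% of all probe sets had groups that did not overlap (difference -0.45 ± 0.16; unadjusted p = 0.0151, adjusted p = 0.652, limma). Meis1, the cofactor that binds the site printed in capitals above, had group means of 8.46 ± 0.45 in voglibose and 8.46 ± 0.57 in water mice (SD, n = 4). Pknox1 differed by -0.30 ± 0.17.

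Of the homeobox genes related to or flanking the clusters, 8 of 8 were measured, and 2 lay above the band: Cdx2 and Cdx1, the caudal genes that keep intestinal identity in the epithelium. Cdx2 had 11.85 ± 0.12 in voglibose and 11.68 ± 0.25 in water mice (SD, n = 4; difference 0.17 ± 0.16). Evx1 and Evx2, which flank the Hoxa and Hoxd clusters at the posterior end, had 3.47 and 3.40 in voglibose and 3.30 and 3.33 in water mice, at background like the Hox genes beside them. Of these 8 genes 6 were higher and 2 lower, with 0 at an unadjusted p under 0.05. The antisense RNAs Hoxa11os and Hoxd3os1, the 2 of 15 listed cluster RNAs that were measured, had means of 3.86 and 4.05.

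Polycomb proteins keep silent Hox genes repressed, and Trithorax proteins keep active ones on. Of 19 measured Polycomb genes 9 were higher and 10 lower in voglibose mice (median difference -0.01), with 3 lower at an unadjusted p under 0.05, where 4.44% of all probe sets were lower at that level. These were Bmi1 (-0.48 ± 0.16), Eed (-0.49 ± 0.18) and Mtf2 (-0.48 ± 0.20), and 0 genes passed after adjustment (adjusted p = 0.652 to 0.659 for the 3, limma). All 3 were among the 14 Polycomb genes above the band, where 9.39% of all probe sets reached that level in either direction. Of 9 measured Trithorax and histone demethylase genes 3 were higher and 6 lower (median -0.15), with 0 at an unadjusted p under 0.05, and Men1 and Dpy30 differed by -0.30 ± 0.15 and -0.42 ± 0.25. Of 12 genes of retinoic acid metabolism, its receptors and other signals upstream of Hox genes 4 were higher and 8 lower (median -0.07). Aldh1a1, which makes retinoic acid, was the 1 gene at an unadjusted p under 0.05 (-0.60 ± 0.26; adjusted p = 0.659, limma).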

How the data were processed

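The measurement was total RNA of ileum on Affymetrix arrays, 250 ng per array and 1 array per mouse. The authors deposited log2 signals, 1 per probe set and array. RMA and the Transcriptome Analysis Console were used, per the submitters' processing notes. The sources used here name no version, setting or genome build, and the log2 scale was read from the values. Normalization across arrays hides changes in total RNA. No batch was tested, as none is named.

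Symbols came from the platform annotation, and all 33 Hox genes matched a RefSeq entry (GRCm38.p6) by gene identifier. Genes with several probe sets in the marker lists took the one with the highest mean. The members and lists were chosen with earlier results of these data known. Groups came from the labels, which describe 4 mice per group.

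Differences (voglibose minus water) were tested with limma 3.58.1 in R 4.3.3 (lmFit, eBayes) over all 22206 probe sets without a filter, 2-sided, with Benjamini-Hochberg adjustment and a threshold of 0.05, and this fit was tested on simulated data. Correlations used exact permutation of all pairings in Python 3.11.15. Values per mouse are given for the 8 Hox genes with the smallest p, the 8 above the band with the largest SD, and the highest mean and highest paralogue number above the band in each cluster. From other lists, up to 4 genes with the smallest p and the defining markers were named. Alternatives were further normalization, other variance models, array weights, a filter at the band, other bands, a block on replicate number and leaving out mice. Figures were drawn with matplotlib 3.10.9.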

Additional observations from a re-analysis of the deposited data

Results flagged for a closer look

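Each group of 4 mice was checked for a mouse far from the other 3, over the 33 Hox genes and 18 gene lists, 102 groups in all, of which 4 stood out. Chance alone marks about 1 group in 20. Hoxa2 in voglibose mouse 3 was 6.14, where the other voglibose mice had 5.85 to 5.87. Hoxb13 in voglibose mouse 1 was 3.42, where the others had 2.89 to 2.98, a signal at background level. Hoxc9 in water mouse 3 was 5.67, where the other water mice had 6.27 to 6.35. The pancreas list mean of voglibose mouse 2 was 3.62, where the other voglibose mice had -0.61 to -0.28 and the water mice -0.72 to -0.45. Without voglibose mouse 2 the difference of Hoxc9 was -0.01, without water mouse 3 it was -0.09, and Hoxa2 differed by 0.16 without voglibose mouse 3.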

How the results depend on the processing

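No Hox gene was called under any of the 16 other fits (smallest adjusted p 0.594), and 0 were called by the ordinary linear model. The count of genes above the band was 9 at the 90th percentile of the receptor probe sets and 6 at the 99th, 5.91. Hoxa2, Hoxa4 and Hoxb3, with means of 5.81, 5.23 and 5.22, lay below that higher limit. Against the median of all probe sets the count was 6, and by the higher group mean it was 7. Leaving out water mouse 4 gave 8. The 1 gene at an unadjusted p under 0.05 became 3 with the ordinary linear model, 0 with a replicate block, 0 with only probe sets above the band, and 0 to 2 when each mouse was left out. Of all 22206 probe sets 1671 stood at that level in the reported fit, 1560 with the ordinary linear model, 1529 with the replicate block and 969 to 1906 when each mouse was left out, and 1103 of the 13088 above the band when only these were fitted. Genes whose groups did not overlap numbered 2 after quantile normalization, 1 to 5 when each mouse was left out, and 5 without water mouse 4 and voglibose mouse 2, an alternative chosen after seeing the data. With fewer mice such gaps arise more often. The share of all probe sets was counted only with all 8 mice and the reported signals (4.35%). These counts are thus not read as a result about Hox genes. Marker relations past the threshold numbered 1 with array medians centred, 1 with Spearman's rho and 0 to 1 when each mouse was left out, each time that of Hoxc8 with the distal list. The r of that relation ran from 0.85 (without water mouse 2) to 0.93 over the single mice left out.

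The sign of 15 small differences depended on single mice. Leaving out each mouse gave -0.16 to 0.11 for Hoxa3, -0.09 to 0.24 for Hoxa4, -0.22 to 0.11 for Hoxb2, -0.49 to 0.06 for Hoxc6 and -0.09 to 0.15 for Hoxc9. Below the band it gave -0.0083 to 0.10 for Hoxa11, -0.11 to 0.07 for Hoxb13, -0.21 to 0.11 for Hoxb6, -0.15 to 0.02 for Hoxb9, -0.02 to 0.19 for Hoxc10, -0.06 to 0.10 for Hoxc11, -0.08 to 0.02 for Hoxc12, -0.10 to 0.11 for Hoxd12, -0.03 to 0.24 for Hoxd8 and -0.05 to 0.06 for Hoxd9. Quantile normalization gave -0.02 for Hoxa4, -0.0083 for Hoxb13 and -0.02 for Hoxd9. Array weights gave 0.03 for Hoxb6 and 0.03 for Hoxd12. Without water mouse 4 and voglibose mouse 2, Hoxb2, Hoxb6 and Hoxc10 had 0.06, 0.04 and -0.01. The cause was not tested. Deviations of mice with the same number had correlations from -0.324 to 0.015, against -0.282 to 0.396 for mice with other numbers. So few correlations cannot settle whether the numbers pair the mice. The replicate block changed no adjusted call. Signals near background limit what can be said of the 24 genes below the band.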

Other observations

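Among the 9 Hox genes above the band, 36 pairs were compared across the 8 mice, a family added after the data had been seen. With Pearson's r, 5 pairs had an unadjusted exact permutation p under 0.05 and 0 passed after adjustment. With Spearman's rho the counts were 3 and 0. Pairs of other probe sets were not compared, so these counts have no background share. Hoxa4 and Hoxb7 ran in opposite directions (r = -0.83, rho = -0.89; exact permutation p = 0.00635 and 0.00605, adjusted 0.155 and 0.109; r = -0.79 without voglibose mouse 4 and water mouse 4). Hoxc6 and Hoxc8 ran together (r = 0.77, rho = 0.90; exact permutation p = 0.0366 and 0.00486, adjusted 0.309 and 0.109; r = 0.83 without water mice 2 and 4), as did Hoxa3 and Hoxc9 (r = 0.68, rho = 0.85; exact permutation p = 0.00863 and 0.0112, adjusted 0.155 and 0.135).

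Other cell types of the wall were measured through marker lists. Interstitial cells of Cajal, the pacemaker cells of gut muscle, had list means from -0.22 to 0.31 in voglibose and from -0.33 to 0.42 in water mice, with 1 of 5 genes higher and 4 lower. Enteric neurons and glia ran from -0.19 to 0.10 in voglibose and from -0.23 to 0.29 in water mice, and 4 of their 10 measured genes lay above the band. Of these 10, Vip alone had an unadjusted p under 0.05, against 7.52% of all probe sets (-0.84 ± 0.24, unadjusted p = 0.00453, adjusted p = 0.652, limma). Its voglibose mice (7.80 to 8.72) lay below its water mice (8.73 to 9.46), and 4.35% of all probe sets had groups that did not overlap. Endothelial genes ran from -0.20 to 0.32 in voglibose and from -0.12 to 0.16 in water mice. The endothelial, fibroblast and pancreas lists each had 1 gene at an unadjusted p under 0.05. These were Vwf (0.46 ± 0.16), Lum (-0.94 ± 0.41) and Prss1 (0.82 ± 0.36), with adjusted p of 0.652, 0.659 and 0.659 (limma). Prss1 did not lie above the band and was highest in voglibose mouse 2 (5.77). The adipocyte list was highest in water mouse 2 (0.70), with 4 of 6 genes not above the band, Adipoq, Plin1 and Lep among them. Leukocyte genes ran from -0.51 to 0.57 in voglibose and from -0.79 to 0.47 in water mice, the lowest being water mouse 2. The mean of the proximal list ran opposite to the distal one, with 0.75 in voglibose mouse 2 and 0.69 in water mouse 4, against -1.13 in water mouse 2. Not all its genes did so. Cybrd1 was lowest in water mouse 4 (5.66) and had 6.75 in water mouse 2. Pdx1, which did not lie above the band, was lowest in voglibose mouse 2 (4.10).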
